A study of Mus musculus with 3 samples.

Results

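The Fraser complex and the nephronectin-integrin pair were described through 7 genes: Fras1, Frem1, Frem2, Frem3, Grip1, Npnt and Itga8. The members were the probe sets whose platform annotation gave 1 of these symbols and no other, and all 7 genes had 1 such probe set, among 19938 named genes in all. No probe set with several symbols held a member. The samples were 3 Affymetrix arrays of 1 group, for which the labels name 1 transgene and no other allele and no treatment agent. Each held ureteric tip cells of the CD-1 strain from embryos at 10.5 days post coitum (Theiler stage 18, sex unknown) that carried the transgene Tg(Hoxb7-EGFP)33Cos, which makes the cells of the nephric duct and ureteric bud fluoresce green under control of Hoxb7 regulatory sequence. Cells of 1 bud, not pooled, were trypsinised and sorted by fluorescence, and the RNA was amplified in 1 round. The labels do not say whether the buds came from separate embryos, so p-values measure at most the spread between these 3 samples. For genes with 1 identical value on all 3 arrays they hold no spread between buds. The small number of arrays limits the precision. There was no second condition, so the question open to the data was which genes of the complex gave a signal above background in the sorted bud cells, and how much they differed between buds.

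The ureteric bud is an epithelial outgrowth of the nephric duct that invades the metanephric mesenchyme and branches under the growth factor GDNF, which the mesenchyme makes. FRAS1, FREM1 and FREM2 are very large basement membrane proteins that stabilise one another under epithelia, and GRIP1 is a cytoplasmic scaffold with PDZ domains that FRAS1 and FREM2 need to reach the basal surface. Nephronectin, the product of Npnt, is a matrix ligand of the integrin α8β1, whose α chain is made by the mesenchyme, and loss of either gene, or of the Fraser complex, can leave embryos without kidneys. In several embryonic tissues FRAS1 and FREM2 come from the epithelium and FREM1 from the mesenchyme beneath it.

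Promoter sequences are shown for members that lay on opposite sides of the background level. RefSeq promoter windows (GRCm38.p6, 250 bases before to 50 after a start) were matched for 6 of the 7 genes by symbol, with 10 starts in all; Fras1 was not matched. The windows of Frem2 and Npnt, which gave a signal, and of Itga8, which did not, are shown. In that of Frem2 capitals mark a match to the grainyhead motif, and in the others they mark CpG dinucleotides.
Frem2, chr3:53657306-53657605, minus strand: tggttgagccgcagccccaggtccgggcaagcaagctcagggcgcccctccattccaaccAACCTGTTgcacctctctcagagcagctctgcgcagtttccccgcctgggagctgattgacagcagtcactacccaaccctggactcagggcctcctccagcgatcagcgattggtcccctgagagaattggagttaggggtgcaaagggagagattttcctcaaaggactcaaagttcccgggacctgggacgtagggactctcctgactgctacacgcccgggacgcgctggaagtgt
Npnt, chr3:132950242-132950541, minus strand: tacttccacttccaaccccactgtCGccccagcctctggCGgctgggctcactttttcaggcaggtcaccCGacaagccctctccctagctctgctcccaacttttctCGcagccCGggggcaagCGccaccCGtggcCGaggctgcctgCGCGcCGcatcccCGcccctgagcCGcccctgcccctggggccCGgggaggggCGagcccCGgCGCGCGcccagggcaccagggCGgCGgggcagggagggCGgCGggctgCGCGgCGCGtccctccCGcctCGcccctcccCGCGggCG
Itga8, chr2:12301895-12302194, minus strand: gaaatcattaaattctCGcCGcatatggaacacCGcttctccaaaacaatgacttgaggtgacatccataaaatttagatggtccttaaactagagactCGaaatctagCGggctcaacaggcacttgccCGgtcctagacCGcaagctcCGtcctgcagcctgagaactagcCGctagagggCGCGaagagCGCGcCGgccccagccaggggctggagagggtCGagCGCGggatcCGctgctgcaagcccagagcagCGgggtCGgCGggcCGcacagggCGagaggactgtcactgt
A window was called CpG-rich at a GC content of at least 50% and a ratio of observed to expected CpG of at least 0.6, which 33.5% of the 32841 RefSeq windows met. Npnt met it at both of its starts, with 32 CpGs in the window shown and 26 in the other. Grip1 met it at 1 of its 3 starts, with 38 CpGs. Itga8, whose signal lay below background, met it with 23 CpGs, whereas Frem2, whose signal lay above it, had 13 CpGs and a ratio of 0.477 and did not. Both starts of Frem1 and the start of Frem3 also fell short, with ratios of 0.311, 0.345 and 0.38. Thus a CpG-rich start was found on both sides of the background level, and so was its absence. The grainyhead motif, searched as AACCNGTT on both strands, was present in 2.09% of all windows and among the members in that of Frem2, as AACCTGTT beginning 190 bases before the start. The other motifs were also searched on both strands. An ETS motif (CCGGAAG, in 8.86% of all windows) was found at 1 start of Frem1, and a GATA motif (AGATAA, in 11.2%) at none of the 10 starts. The letters of a TATA box (TATAAA, in 13.6%) were found at 1 start of Grip1. They lay on the strand opposite the gene, as TTTATA in the gene's own direction, so they do not mark a TATA box of that start. These matches are letters in a window and show no binding.

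Signals are the log2 values that the authors deposited, and background was set on each array at the value that 95% of the 1035 olfactory receptor probe sets stay under (their 95th percentile), these being genes taken to have no use in this tissue. That level was 5.40, 5.45 and 5.41 log2 on arrays 1, 2 and 3. A gene was above background when limma's moderated one-sided test of signal minus level passed an adjusted p of 0.05 over all genes. Fras1, Frem2, Grip1 and Npnt were above background and Frem1, Frem3 and Itga8 were not. That count of 4 of 7 compares with 53% of all named genes, so as a share it does not set the members apart from the rest of the array. Of all genes, 63.7% were called with the 90th percentile of olfactory receptors, 65% with vomeronasal receptors, 35.3% against the 99th percentile of olfactory receptors and 21.1% when keratin-associated protein and beta-defensin genes set the level, and the members called numbered 5, 5, 4 and 2 of 7. Of all genes, 51.1% were called with an SD floor for identical values, 54% by a rule without a model, 48.5% without array 1, 52.8% without array 2 and 48.8% without array 3, and 4 of the 7 members under each of these. A filter that removed the dimmest 25% of probe sets left 6 members, with 4 called, against 65% of the genes it kept. Without the genes of identical values 3 members were left, with 2 called, against 63.1%. The median distance from the level was 0.93 log2 over the members and 0.22 log2 over all named genes. Probes bind with different strength, so signals of different genes set no order among them.

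**Figure D1:**
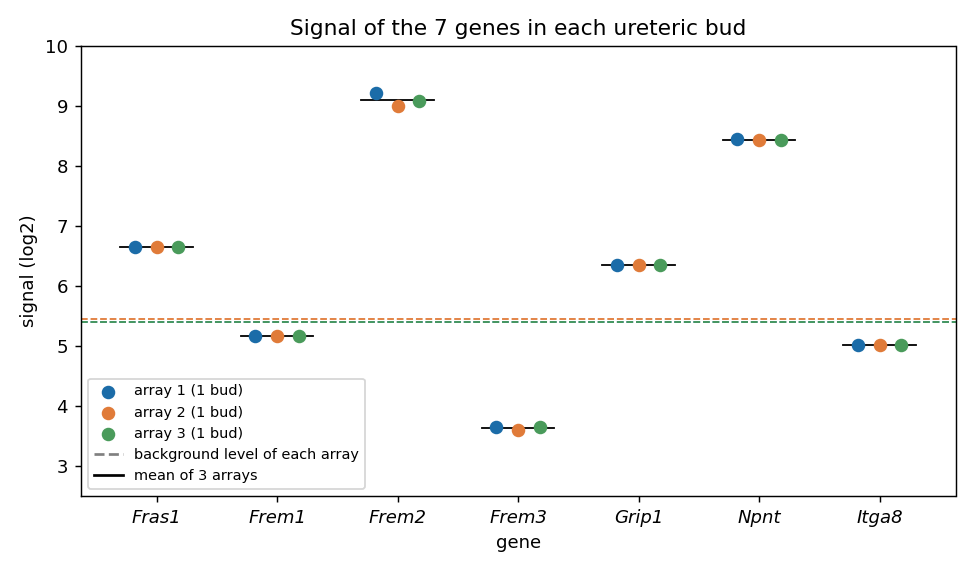
Signal (log2) of each of the 7 genes on each of the 3 arrays, with black lines for the mean of a gene and dashed lines for the background level of each array. Fras1, Frem2, Grip1 and Npnt lie above the dashed lines on all 3 arrays, and Frem1, Frem3 and Itga8 below them.

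Of the large matrix proteins, Fras1 and Frem2 were detected. Fras1, the founding gene of the family, encodes a transmembrane protein with its large outer part in the basement membrane. Its signal was 6.65 log2 on arrays 1, 2 and 3, identical to the last deposited digit, and lay 1.23 ± 0.02 log2 (SE, n = 3) above the level (limma, adjusted p = 5.68e-06). Only 3 of the 1035 olfactory receptor probe sets (0.29%) had a higher mean. Because the 3 values were identical, the error comes from the background levels and limma's prior and not from the buds. Frem2, a transmembrane relative of Fras1, had signals of 9.221, 9.002 and 9.076 log2 on arrays 1, 2 and 3. All 3 arrays were far above the level, array 1 being the highest and array 2 the lowest. The mean of 9.10 ± 0.11 log2 (SD, n = 3) lay 3.68 ± 0.06 log2 (SE) above the level (limma, adjusted p = 4.15e-06), and 0 olfactory receptor probe sets had a higher mean. Frem2 remained above the highest background tried, the 95th percentile of keratin-associated protein and beta-defensin genes, by 2.23 log2, whereas Fras1 lay 0.21 log2 below that level and lost its call.

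Frem1 and Frem3 were not above background. Frem1, which encodes a secreted member of the family, had 5.17 log2 on all 3 arrays, an identical value that lay below the level by 0.25 log2 (signal minus level −0.25 ± 0.02, SE, n = 3; limma, adjusted p = 1). Of the olfactory receptor probe sets, 78 (7.54%) had a higher mean, and 51 other probe sets held the same value as Frem1 on all 3 arrays. Its place depended on the background chosen: it was above the 90th percentile of olfactory receptors by 0.13 log2 (limma, adjusted p = 0.000504) and above the 95th percentile of vomeronasal receptors by 0.30 log2 (limma, adjusted p = 0.00814). Frem3, a further relative of Fras1 and Frem2, had signals of 3.654, 3.604 and 3.654 log2 on arrays 1, 2 and 3. These values stood in the middle of the olfactory receptors, of which 571 (55.2%) had a higher mean. The mean of 3.64 ± 0.03 log2 (SD, n = 3) was below every background level tried, by 1.23 to 3.23 log2.

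Grip1, the scaffold that carries Fras1 and Frem2 to the basal surface, was above background. Its signal was 6.35 log2 on all 3 arrays, identical to the last digit, at 0.93 ± 0.02 log2 (SE, n = 3) above the level (limma, adjusted p = 1.2e-05), with 6 olfactory receptor probe sets (0.58%) higher. The same value stood in 36 other probe sets on all 3 arrays. It stayed above the 99th percentile of olfactory receptors and fell 0.52 log2 below the level from keratin-associated proteins and beta-defensins. Its probe set summarises a gene with 29 RefSeq transcripts, so the isoform behind the signal was not resolved.

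The ligand of the pair was detected and the receptor chain was not. Npnt had signals of 8.45, 8.43 and 8.43 log2 on arrays 1, 2 and 3, the last 2 identical. The arrays differed by at most 0.018 log2, and the mean of 8.44 ± 0.01 log2 (SD, n = 3) lay 3.02 ± 0.02 log2 (SE) above the level (limma, adjusted p = 9.34e-07). No olfactory receptor probe set had a higher mean, and Npnt was still 1.57 log2 above the level from keratin-associated proteins and beta-defensins. Itga8, the α chain of its receptor, was at 5.02 log2 on all 3 arrays, an identical value 0.40 log2 below the level (signal minus level −0.40 ± 0.02, SE, n = 3; limma, adjusted p = 1), with 113 olfactory receptor probe sets (10.9%) higher. Itga8 was called under 0 of the 12 alternatives that could be run for it, and by limma under 0 at an unadjusted p of 0.05. It came nearest with vomeronasal receptors as background, where it was above the levels of all 3 arrays (4.80, 4.96 and 4.84 log2), by a mean of 0.16 log2. That fit used a pooled SD of 0.203 log2 for all genes and did not call it (limma, adjusted p = 0.132, unadjusted p = 0.0882). In these sorted samples, few cells with much of an RNA and many cells with little cannot be told apart.

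**Figure D2:**
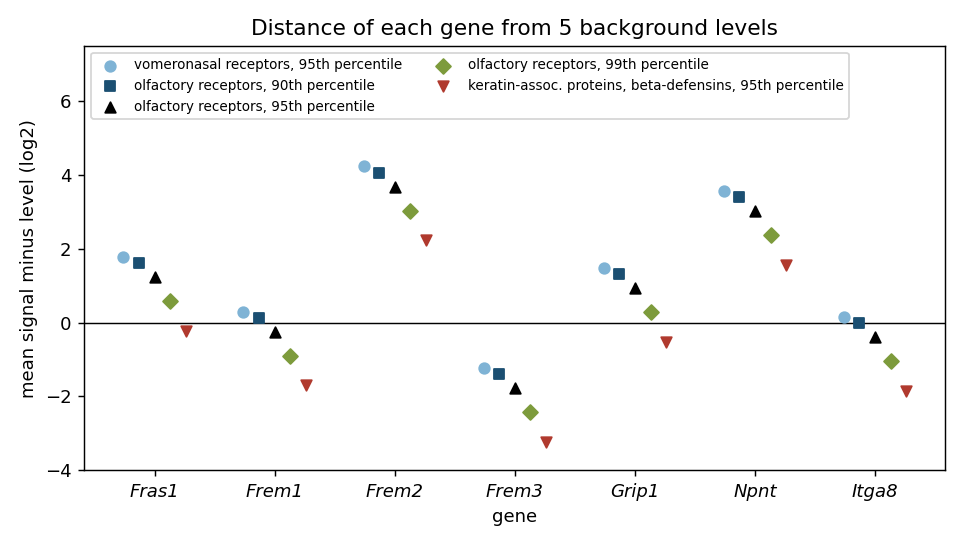
Mean signal over the 3 arrays minus the background level (log2) for each of the 7 genes, under 5 choices of background. Frem2 and Npnt lie above 0 with all 5, Frem3 lies below 0 with all 5, and Fras1, Grip1, Frem1 and Itga8 change side with at least 1 of them.

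The 8 other genes of the Fraser complex surroundings, chosen as partners or relatives, were all above background, against 53% of all named genes, by a median of 0.46 log2. Hmcn1, which encodes the matrix protein hemicentin 1, had 77 probe sets, and the other genes of this list 1 each. The Hmcn1 average was 7.34, 6.96 and 7.05 log2 on arrays 1, 2 and 3, and lay 1.70 ± 0.10 log2 (SE, n = 3) above the level (limma, adjusted p = 0.000145). Its probe set with the highest mean lay 4.21 log2 above the level. Fbln1, the gene of fibulin 1, was at 6.57 ± 0.01 log2 (SD, n = 3), and Col7a1, the collagen of anchoring fibrils, at 6.42 log2, identical on all 3 arrays. These 3 were also above the 99th percentile of olfactory receptors, where 35.3% of all genes were called. The other 5 lost their calls there: Hmcn2, a second hemicentin, was at 5.93 log2, Fbln2 at 5.82, Cspg4, a proteoglycan that shares a repeat type with FRAS1, at 5.80, and Vwa2, whose product AMACO binds the Fraser complex, at 5.69, each identical on all 3 arrays. Grip2, the paralogue of Grip1, was closest to the level, with 5.50, 5.50 and 5.59 log2 on arrays 1, 2 and 3 (0.11 ± 0.04 log2 above it, SE; limma, adjusted p = 0.0395). Its call was lost without array 1 (limma, adjusted p = 0.353) and without array 3 (limma, adjusted p = 0.53), as well as with the SD floor for identical values (limma, adjusted p = 0.113) and with identical genes left out (limma, adjusted p = 0.0624). The fits without array 1 and without array 3 used a pooled SD for all genes, unlike the main fit. With the level from keratin-associated proteins and beta-defensins 0 of the 8 were called (limma; 1 at an unadjusted p of 0.05, and 1, Hmcn1, by the rule without a model), against 21.1% of all genes.

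Among integrins and matrix ligands that α8β1 or its relatives bind, 9 of 13 measured genes were above background, beside 53% of all named genes, with a median of 0.95 log2 above the level. Itgb1, which encodes the β1 chain that pairs with α8 and many other α chains, was at 9.66 log2 on all 3 arrays, identical to the last digit and 4.24 ± 0.02 log2 (SE, n = 3) above the level (limma, adjusted p = 6.94e-07). Of the α chains other than α8, Itga6, a laminin receptor chain, had signals of 8.23, 8.07 and 8.23 log2 on arrays 1, 2 and 3, and Itgav 7.51, 7.51 and 7.40. Itga3, also a laminin receptor chain, had 6.59, 6.38 and 6.13 log2. Itga9 and Itga5 held 1 value each on every array, 6.65 and 6.13 log2, and all 5 of these chains were above background. Itga8 had no call, nor had the α chain gene Itga2, described with the basement membrane. For β chains, Itgb5 was above background at 5.86 log2, identical on all 3 arrays, while Itgb6 at 3.97 log2 was not, and Itgb3 had 5.74, 5.40 and 5.74 log2 and did not pass (limma, adjusted p = 0.0983). Itgb3 passed without array 2, which held its lowest value (limma, adjusted p = 0.00101).

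The ligands in that list were detected unevenly. Egfl6, which encodes a relative of nephronectin that also binds α8β1, was at 7.55 log2 on all 3 arrays, identical, and 2.13 ± 0.02 log2 (SE, n = 3) above the level (limma, adjusted p = 1.56e-06). Fn1, the gene of fibronectin, had 8.96, 8.53 and 8.53 log2 on arrays 1, 2 and 3. Array 1 was the highest by 0.43 log2 and arrays 2 and 3 were identical, all of them above the level by a mean of 3.26 ± 0.11 log2 (SE; limma, adjusted p = 3.32e-05). Vtn, the gene of vitronectin, and Tnc, of tenascin C, stood at 4.75 and 4.50 log2 on every array and did not pass the test. With the level from keratin-associated proteins and beta-defensins, Itgb1, Itga6, Itgav, Egfl6 and Fn1 kept their calls.

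Cytoplasmic adhesion genes, which link β1 integrins to actin, were above background in 10 of 11 measured members, where 53% of all named genes were, with a median of 1.41 log2 above the level. Ilk, an integrin-linked pseudokinase, had signals of 7.13, 7.09 and 7.13 log2 on arrays 1, 2 and 3, and its partner Lims1 7.86, 7.44 and 7.86. The third partner, Parva, was at 6.87 log2 and the talin gene Tln1 at 6.77, each identical on all 3 arrays. Fermt1, a kindlin, was the member without a call, at 4.08 log2 on all 3 arrays. The other kindlin gene of the list, Fermt2, was above background at a mean of 7.32 log2. The second talin gene, Tln2, was above background at 5.74 log2.

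Basement membrane genes were above background in 13 of 15, against 53% of all named genes, with a median of 1.05 log2 above the level. The laminin chain genes Lamc1 and Lamb1 had means of 8.48 ± 0.13 and 8.20 ± 0.14 log2 (SD, n = 3), and both were highest on array 1 and lowest on array 3. Lama1, at 7.15 log2, Lama5, at 5.97, Lamb2, at 6.01, and Col4a1, at 6.95, were each identical on all 3 arrays and above background. The nidogen gene Nid1, with 5.89, 5.07 and 5.98 log2, and the collagen receptor chain Itga2, with 6.04, 5.29 and 5.84, did not pass (limma, adjusted p of 0.341 and 0.158). Both were lowest on array 2, and both passed without it (limma, adjusted p of 0.00424 and 0.0225).

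Genes around GDNF induction, which act in bud or mesenchyme, were above background in 11 of 19, close to the 53% of all named genes, with a median of 1.15 log2 above the level. The GDNF receptor genes Ret and Gfra1 were above it at 8.41 ± 0.26 and 8.22 ± 0.37 log2 (SD, n = 3), and both were highest on array 1 and lowest on array 3. Bmp4 and Bmp7 were above it with 1 value each on every array, 6.57 and 7.31 log2. Gdnf itself, at 5.31 log2, and Grem1, an antagonist of BMP4, at 5.10 log2, were identical on all 3 arrays and not above background. Both of these passed with the 90th percentile of olfactory receptors.

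**Figure D3:**
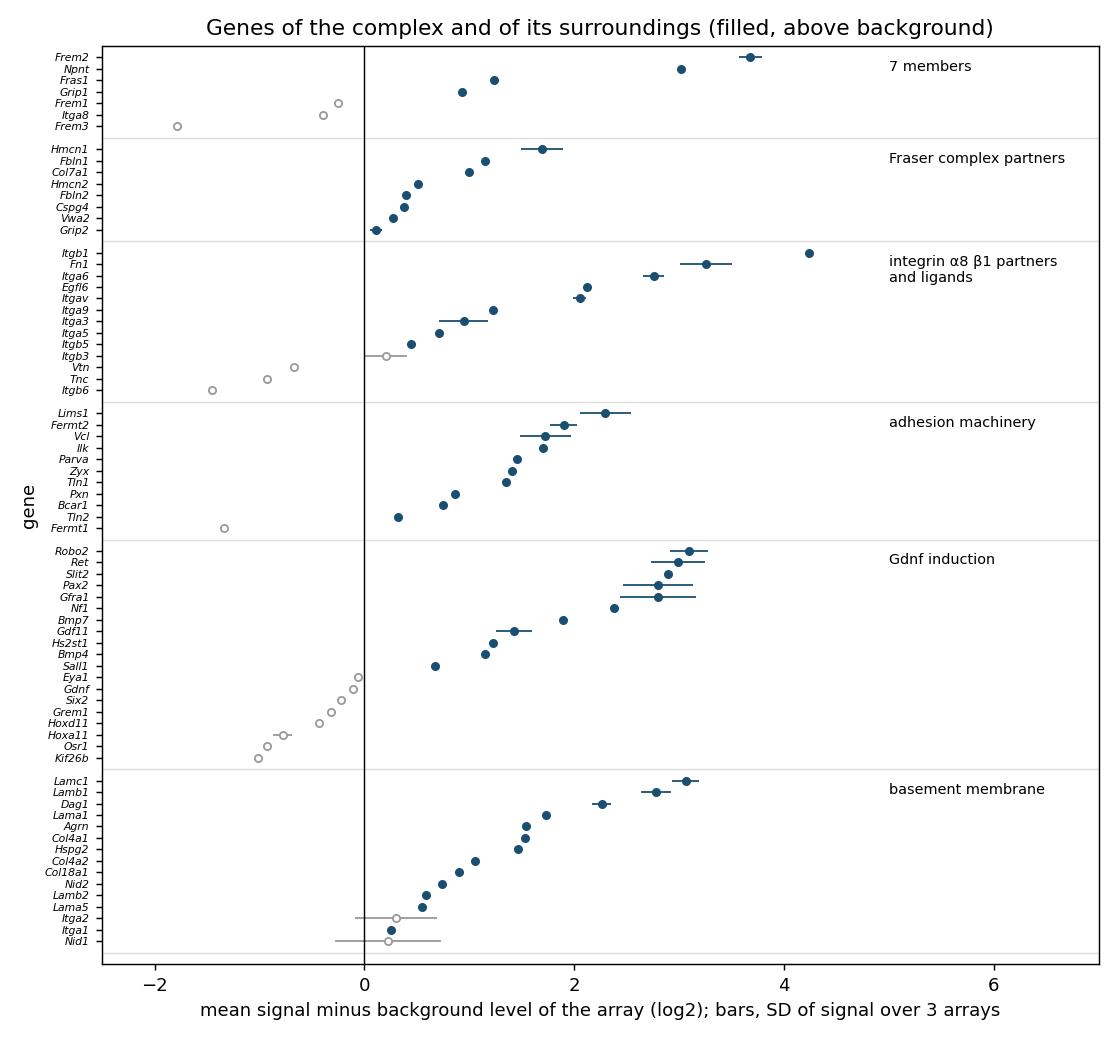
Mean signal over 3 arrays minus background level (log2) for each gene of the complex and of the 5 surrounding lists, with bars for the SD of the signal and filled points for genes above background. All 8 Fraser complex partners are filled, while 3 of the 7 members and 8 of the 19 GDNF induction genes are open.

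The cell type lists gave the setting for these calls, to be read beside the 53% of all named genes above background. Ureteric bud markers were above background in 12 of 12 (Calb1 at 11.47 ± 0.07 log2, SD, n = 3; Hoxb7 at 7.01 ± 0.15; Wnt11 at 6.05, identical on all 3 arrays), and their summed signal was 102, 99.7 and 99.2 log2 on arrays 1, 2 and 3. Metanephric mesenchyme markers were above it in 3 of 10 (Cited1, Sall1 and Wt1), without Six2, Eya1 or Osr1, and their summed signal stayed between 52.8 and 53.0 log2. Stroma markers were above it in 2 of 10 (Col1a1 and Col3a1), without Foxd1, Tcf21, Pdgfra or Pdgfrb, with sums of 47.0 to 47.1 log2. Identical values on all 3 arrays were held by 7 of the 10 mesenchyme and 9 of the 10 stroma markers, so their sums could hardly vary. Of the mesenchyme and stroma markers called, Wt1 lost its call without array 1 (limma, adjusted p = 0.182) and without array 3 (limma, adjusted p = 0.168). Wt1 held 1 value on all 3 arrays and lay 0.181 log2 above the level in the main fit, and 0.171 and 0.174 log2 in these. Both of these fits used a pooled SD for all genes (0.183 and 0.18 log2), so the loss shows no difference between buds. Itga8 and Frem1 thus lay below background in samples where 15 of 20 mesenchyme and stroma markers did too. How much mesenchyme the samples held, and its part in the levels of Itga8 and Frem1, was not tested. Endothelial markers, of which 0 were identical on all 3 arrays, were above background in 7 of 10. They varied between buds, with sums of 66.0, 58.2 and 69.8 log2. Pecam1, Cdh5 and Tek were among those called, while Kdr, Esam and Sox17 were not, though Kdr passed without any 1 array, Esam without array 1 or array 2, and Sox17 without array 1 (limma, adjusted p of at most 0.0467). The fits without array 1 and without array 3 again used the pooled SD in place of each gene's own spread. Without array 3, signal minus level of Kdr fell from 0.88 to 0.51 log2, while its adjusted p (limma) fell from 0.0548 to 8.14e-05. These calls are therefore not like for like with the main ones. Erythroid markers were called in 3 of 6, leukocyte markers in 3 of 8, and surface ectoderm and gut markers in 2 of 8.

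The spread between buds could be read in 3 of the 7 members. The highest and lowest array differed by 0.22 log2 in Frem2, 0.049 in Frem3 and 0.018 in Npnt, and by 0 in the other 4, whose spread the deposited values do not hold. Among the 6118 genes that were above background and not identical, 49.3% had a larger difference than Frem2 and 95.3% a larger one than Npnt. Over all named genes 51.7% were identical on all 3 arrays, 28.7% had 2 distinct values, as Npnt and Frem3 did, and 19.6% had 3, as Frem2 did. Frem2 and Npnt were highest on array 1, as were the summed bud markers, and Frem2 was lowest on array 2, as were the summed endothelial and erythroid markers. Erythroid sums, at 39.5, 32.1 and 37.6 log2 on arrays 1, 2 and 3, had the same order as Frem2. The part of bud, endothelial or erythroid RNA in these differences was not tested. With 1 bud per array a difference between 2 arrays has no replicate.

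**Figure D4:**
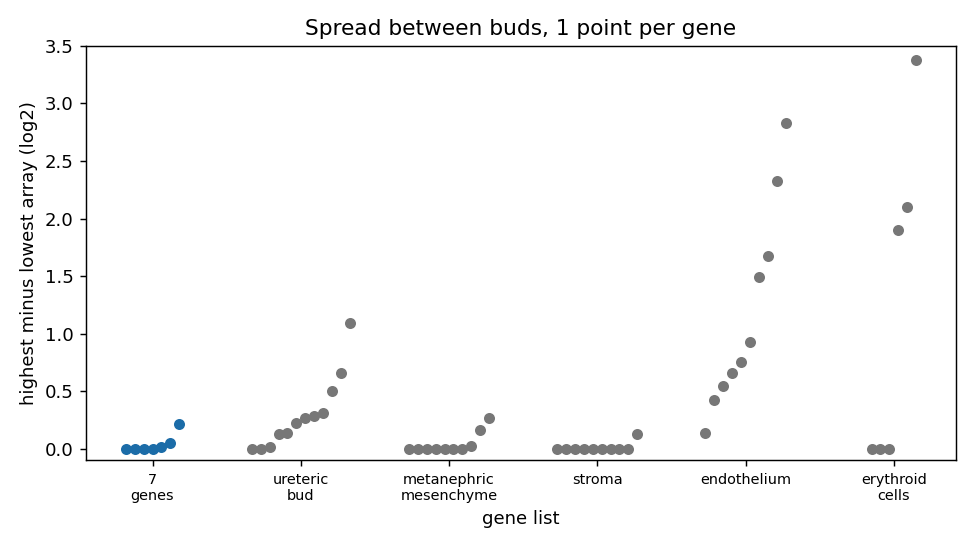
Difference between the highest and the lowest array (log2), 1 point per gene, for the 7 members and 5 marker lists. Members reach at most 0.22 log2, bud markers 1.09 (median 0.25), endothelial markers 2.83 and erythroid markers 3.38. Points at 0 are genes with identical deposited values, which hold no spread between buds. These are 4 of the 7 members, 2 of 12 bud, 7 of 10 mesenchyme, 9 of 10 stroma, 0 of 10 endothelial and 3 of 6 erythroid markers.

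The genes with a pattern over the 3 arrays most like that of a member were taken from those above background, by the root mean square difference of their deviations from their own mean. For Frem2 they were Zfp334, Gabarapl1 and Pstk, at 0.0061, 0.0095 and 0.011 log2. For Npnt they were Llph, Usp36 and Metap1d, and for Frem3 Amn, Dnm1l and Fbxo31, each within 0.00013 log2. With 3 arrays such likeness carries little weight: 452 of 10566 genes (4.28%) were within 0.05 log2 of Frem2 and 59.4% within 0.05 log2 of Npnt. The share for Npnt follows from flat values, as its arrays differed by at most 0.018 log2. All 4449 genes above background with identical values on the 3 arrays fall within that limit of Npnt.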

How the data were processed

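The authors deposited, for every array, log2 signals summarised by probe set. The submitters' processing notes name Affymetrix Expression Console. The log base was inferred from the range of the values. For its version, background correction, normalization and genome build no statement is given in the sources used here. Medians over all probe sets were 5.47, 5.498 and 5.48 log2 on arrays 1, 2 and 3, and no further scaling was applied. Of 35557 probe sets, 21789 had 1 gene symbol in the platform annotation, 1621 several and 12147 none listed. Probe sets with 1 symbol were averaged per gene (19938 genes). All 7 members matched the RefSeq gene table (GRCm38.p6) by gene ID under the same symbol.

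Signal minus the array's background level was fitted with limma 3.58.1 in R 4.3.3 (lmFit, eBayes), one-sided, with Benjamini-Hochberg adjustment over all genes and a threshold of 0.05. The prior had 1.71 degrees of freedom. The fit was tested on simulated data. Spreads there were drawn from genes whose values differ between arrays, so that test does not cover genes with identical values. Values within 1e-06 log2 count as identical. For such genes p-values reflect the background levels and the prior, and no spread of the buds.

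The members and lists were chosen with earlier results of these data known. Named genes are all members, all measured genes of the Fraser complex and integrin lists, the first 6 of the other pathway lists and the first 4 of each marker list, together with all called or uncalled genes of a list where there are 5 or fewer. Fermt2 is named in addition, beside Fermt1. Blood, ectoderm and gut markers are given as counts only. The genes most like a member are the nearest 3. Some genes of the lists, Spp1 and Ptk2 among them, are not analysed here. Alternatives were the 90th and 99th percentile, vomeronasal receptors (175 probe sets) or keratin-associated proteins and beta-defensins (84 probe sets) as background, quantile normalization, the probe set with the highest mean, an SD floor for identical values, identical genes left out, the lowest 25% of probe sets left out, a rule without a model, and each array left out in turn.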

Additional observations from a re-analysis of the deposited data

How the results depend on the processing

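Of the 4 members above background, Frem2 and Npnt kept their calls under all 13 alternatives, with adjusted p (limma) of at most 0.000594 and 0.000152. Fras1 and Grip1 kept theirs in 11 of the 12 alternatives that could be run for them. Frem3 and Itga8 were called in none of 12, and Frem1 in 2. Quantile normalization and the probe set with the highest mean changed no call of a named gene. Each member had 1 probe set, so the second of these left its signal unchanged and is no check on it. Fras1 and Grip1 held 1 value on every array, so leaving an array out changed only the background levels and the fit.

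With the level from keratin-associated proteins and beta-defensins, 4210 genes were called in place of 10567. Calls were left for 2 members, 0 Fraser complex partners, 5 integrin and ligand genes, 3 adhesion genes, 7 GDNF induction genes and 4 basement membrane genes. Signal minus level was then −0.21 log2 for Fras1, −0.52 for Grip1, −1.17 for Vwa2, −0.93 for Hmcn2, −0.30 for Fbln1, −1.05 for Fbln2, −0.45 for Col7a1, −1.34 for Grip2 and −1.07 for Cspg4. It was −0.73 for Itga5, −0.50 for Itga3, −0.22 for Itga9, −1.004 for Itgb5, −0.095 for Tln1, −1.12 for Tln2, −0.30 for Bmp4, −0.89 for Lama5 and −0.86 for Lamb2. Among markers it was −0.82 for Wnt11, −1.27 for Wt1, −0.77 for Sall1, −0.42 for Col1a1, −0.85 for Col3a1, −0.60 for Pecam1 and −0.30 for Tek. Those are the called genes whose value turned negative. Hmcn1, Parva, Col4a1, Hoxb7, Cited1 and Cdh5 stayed above this level but also lost their calls. With the 99th percentile, 7034 genes and 3 Fraser complex partners were called. The value was −0.37 for Vwa2, −0.13 for Hmcn2, −0.25 for Fbln2, −0.53 for Grip2, −0.26 for Cspg4, −0.20 for Itgb5, −0.32 for Tln2, −0.090 for Lama5, −0.054 for Lamb2, −0.015 for Wnt11, −0.46 for Wt1 and −0.045 for Col3a1. Itga5, Sall1, Pecam1 and Tek stayed above the 99th percentile but also lost their calls. Genes that moved from below the level to a call with the 90th percentile were Frem1 (0.13), Gdnf (0.28), Grem1 (0.060), Six2 (0.16) and Eya1 (0.32). With vomeronasal receptors they were Frem1 (0.30), Gdnf (0.45), Grem1 (0.23), Six2 (0.33) and Eya1 (0.50). Itgb3, Itga2, Kdr, Esam and Sox17, above the level from the start, also gained a call with both of these, and Nid1 with vomeronasal receptors. The level and the prior changed together: the prior SD was 0.0498 log2 in the main analysis, 0.0179 with the 90th percentile and 0.203 with vomeronasal receptors.

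With identical genes left out, fewer genes were tested, and 6078 of 9627 genes were called. Calls stood for 2 of the 3 members that could be tested, 2 of 3 Fraser complex partners, 4 of 5 integrin and ligand genes, 4 of 4 adhesion genes, 5 of 7 GDNF induction genes and 5 of 7 basement membrane genes. The fits without array 1 and without array 3 used a pooled SD. That without array 2 combined each gene's own spread with a prior of 0.91 degrees of freedom, so these fits are not like for like. Frem1 and Itga8 lay within 0.40 log2 of the level, so signal over background limits their calls.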

Other observations

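The deposited values repeat between probe sets, which bears on how far the levels of Grip1 and Frem1 can be read. On array 1, 18692 of 35557 probe sets (52.6%) held a value that at least 1 other probe set also held, and on arrays 2 and 3 the share was 50.9% and 52.5%. The value of Grip1 stood in 36 other probe sets on all 3 arrays at once, that of Frem1 in 51 and that of Itga8 in 4, within 1e-06 log2. Fras1, Frem2, Frem3 and Npnt shared theirs with 0 others on all 3 arrays. The cause of the repeats was not tested.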
